A study of Mus musculus with 6 samples.

Results

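The 8 genes described here encode subunits of Polycomb repressive complex 2 (PRC2): the catalytic and core genes Ezh1, Ezh2, Eed and Suz12, and the accessory genes Jarid2, Aebp2, Mtf2 and Phf19. They were chosen by name and not by any measured value, and are 8 of 21774 protein-coding genes in the RefSeq annotation of the mouse genome (GRCm38, the assembly that mm10 names). The question was which accessible sites are listed at the promoters of these genes and around them, and how these sites lie relative to the binding sites of ZBTB21, a zinc finger protein of the BTB family, and to chromatin loops. The series holds 6 ATAC-seq samples in 3 conditions, 2 samples each: untreated V6.5 mouse embryonic stem cells (mESCs), and mESCs with a ZBTB21 degron at 0 h and at 6 h. V6.5 is an established mESC line that was grown, per the labels, on irradiated mouse embryonic fibroblasts with leukaemia inhibiting factor. The study's methods describe its mESC medium with leukaemia inhibitory factor and the inhibitors CHIR99021 and PD0325901 and name no feeder cells, and which culture gave these samples is not known here. The degron cells were induced with doxycycline, and their samples were not analysed here. ATAC-seq marks accessible DNA by the insertions of the Tn5 transposase, and the data used are 1 list of 41014 peaks that stands for both untreated samples together, each peak with a position and a score.

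PRC2 methylates lysine 27 of histone H3 and so marks the promoters of silent developmental genes, many of which are rich in CpG dinucleotides. EZH2 and EZH1 are the alternative methyltransferases, SUZ12 is the scaffold on which the complex assembles, and EED binds the methylated histone tail that the complex itself makes. The accessory proteins divide PRC2 into a form with a Polycomb-like protein such as MTF2 or PHF19 (PRC2.1) and a form with JARID2 and AEBP2 (PRC2.2). In mESCs the complex is known for holding lineage genes silent until differentiation.

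The list gives neither depth nor values per replicate, so no value has a replicate error and no test between conditions was possible. Peak scores ran from 540 to 953 with a median of 696, and the median width was 547 bp. What the score measures is not given in the sources used here. Its values fit a scale of agreement between replicates, so a high score is not read here as stronger accessibility. A gene without a listed peak is one whose signal did not enter the list, and not one whose chromatin was measured as closed. Of 8 mESC marker genes, 4 had a peak within 1 kb of a transcription start site (TSS), namely Pou5f1, Nanog, Zfp42 and Sall4, and Sox2, Klf4, Esrrb and Tdgf1 had none. Of 8 fibroblast markers, chosen because the labels name feeder cells, 3 had one (Thy1, Pdgfra and Pdgfrb), and the collagen genes Col1a1, Col1a2 and Col3a1 had none, nor did Dcn and Twist2. The median density of peaks per 100 kb was 8.95 at the mESC markers, 2.98 at the fibroblast markers and 2.33 over all protein-coding genes. Of all protein-coding genes, 29.9% had a peak within 1 kb of a TSS. The fibroblast markers were below neither of these values for all genes. What part of any peak came from feeder cells was not tested.

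The promoter sequences shown first are those of the 2 members with a listed promoter peak, Eed and Mtf2, and those of Ezh2 and Suz12, which had none. Each window runs from 250 bases before to 50 bases after the start in the RefSeq promoter table for GRCm38, in the direction of transcription, and capitals mark CpG dinucleotides. All 8 members were matched in this table by symbol, with 12 windows in all. The windows lie at chr7:89980927-89981226 on the minus strand (Eed), chr5:108065424-108065723 on the plus strand (Mtf2), chr6:47594981-47595280 on the minus strand (Ezh2) and chr11:79992856-79993155 on the plus strand (Suz12).
Eed promoter: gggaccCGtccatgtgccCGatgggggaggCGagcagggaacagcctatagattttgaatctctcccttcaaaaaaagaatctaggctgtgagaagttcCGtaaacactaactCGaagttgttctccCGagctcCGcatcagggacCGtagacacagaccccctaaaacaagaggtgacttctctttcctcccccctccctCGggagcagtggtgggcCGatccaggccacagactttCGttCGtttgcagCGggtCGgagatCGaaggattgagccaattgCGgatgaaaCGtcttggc
Mtf2 promoter: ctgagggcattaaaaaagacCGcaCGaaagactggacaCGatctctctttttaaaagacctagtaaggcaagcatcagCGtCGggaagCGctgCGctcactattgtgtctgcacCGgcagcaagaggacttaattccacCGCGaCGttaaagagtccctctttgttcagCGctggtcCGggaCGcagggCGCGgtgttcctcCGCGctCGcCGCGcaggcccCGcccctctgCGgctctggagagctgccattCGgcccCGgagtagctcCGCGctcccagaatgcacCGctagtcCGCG
Ezh2 promoter: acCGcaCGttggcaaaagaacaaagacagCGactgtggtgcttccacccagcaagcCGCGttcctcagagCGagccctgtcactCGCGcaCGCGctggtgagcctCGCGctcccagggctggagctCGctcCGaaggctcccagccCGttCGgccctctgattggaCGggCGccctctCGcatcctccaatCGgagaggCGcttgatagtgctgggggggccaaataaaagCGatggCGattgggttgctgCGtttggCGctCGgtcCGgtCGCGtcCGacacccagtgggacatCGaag
Suz12 promoter: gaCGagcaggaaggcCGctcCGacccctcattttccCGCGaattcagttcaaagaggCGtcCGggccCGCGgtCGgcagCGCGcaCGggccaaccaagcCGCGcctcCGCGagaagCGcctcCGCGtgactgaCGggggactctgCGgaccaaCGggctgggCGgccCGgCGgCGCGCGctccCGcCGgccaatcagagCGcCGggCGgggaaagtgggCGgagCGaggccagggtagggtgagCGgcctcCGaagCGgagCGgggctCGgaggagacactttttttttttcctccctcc
The Eed window held 17 CpGs and the Mtf2 window 30, and both lay with all 300 bases inside a listed peak. The Ezh2 window held 31 CpGs and the Suz12 window 41, and 0 bases of either lay in a listed peak. These windows show that a dense run of CpGs was present both where a peak was listed and where none was.

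A listed peak lay at a promoter of 2 of the 8 PRC2 genes (25%), namely Eed, which had 1, and Mtf2, which had 2. Among all protein-coding genes, 29.9% had a peak within 1 kb of a TSS, so the share of the PRC2 genes lay near the background. All 3 promoter peaks scored below the median of the list: with the peaks that score above it alone, 0 of the 8 genes and 19.4% of all protein-coding genes had a promoter peak. Ezh1, Ezh2, Suz12, Jarid2, Aebp2 and Phf19 had no listed peak within 1 kb of any of their RefSeq starts. All 8 genes had at least 1 peak in the gene span extended by 20 kb on each side, as had 73.0% of all protein-coding genes. The median extended span was 82.3 kb for the PRC2 genes and 57.2 kb for all protein-coding genes, and these shares were not adjusted for length. The extended spans of the 8 genes held 36 peaks. Of these, 3 lay at a promoter of the member itself, 3 at a TSS of another gene, and 30 at no TSS. The core genes had 13 of the 36 peaks and the accessory genes 23, which came to 3.97 and 4.88 peaks per 100 kb of extended span.

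**Figure D1:**
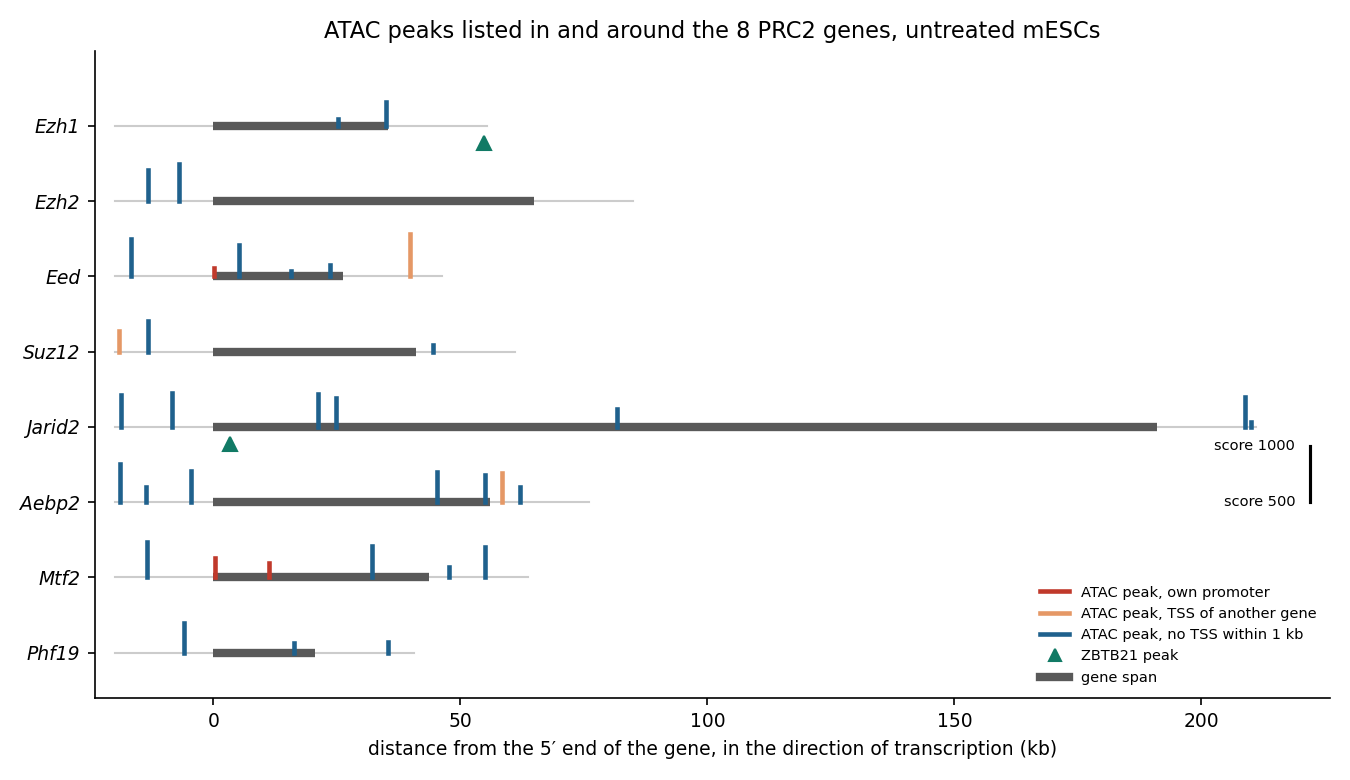
Map of the 36 ATAC peaks at the 8 PRC2 genes in the list of untreated mESCs, drawn to scale in kb from the 5′ end of each gene. Each upright line is a peak whose height above the gene is its score (scale bar from 500 to 1000), coloured by whether it lies at a promoter of the gene itself (3 peaks), at a TSS of another gene (3) or at no TSS (30). Triangles are ZBTB21 peaks, and only Eed and Mtf2 carry a red line.

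Ezh2, the main methyltransferase gene of dividing cells, lies at chr6:47530274-47595270 on the minus strand. It had 10 distinct RefSeq starts, 1 of them curated, and no peak at any of them or anywhere inside the gene. Both of its peaks lay upstream and between genes, at chr6:47601939-47602458 (520 bp wide, score 829) and chr6:47608165-47608686 (522 bp, score 778). The first lay 6669 bp from the nearest Ezh2 start and its score was at the 92.1 percentile of the list. Ezh2 thus had no listed site inside the gene and a pair of high-scoring ones upstream of it.

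Among the 36 PRC2 peaks, 3 had more than 50% of their central 300 bases soft-masked as repeats in the RefSeq genome (8.33%), against 10.3% of all peaks. They are the Ezh2 peak nearest to the gene, the upstream peak of Eed and an intronic peak of Eed, so 2 of the 3 are high-scoring upstream peaks. Whether reads from other copies of a repeat entered these peaks was not tested.

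Ezh1, the methyltransferase gene that is known for its use in non-dividing tissues, lies at chr11:101191115-101226463 on the minus strand. Its 2 peaks lay inside the gene, at chr11:101191180-101191799 in the last, untranslated part (620 bp, score 714) and at chr11:101201034-101201317 in an intron (284 bp, score 562). The nearest listed peak to an Ezh1 start was 21908 bp away, the farthest of the 8 genes. That nearest peak is neither of these 2, and lay upstream just beyond the 20 kb flank. Ezh1 was the only member with no peak listed upstream of it within 20 kb, which thus rests on the flank chosen.

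Eed, which encodes the WD-repeat subunit that reads the methylated tail, had the highest peak density of the 8 genes, with 6 peaks or 9.05 per 100 kb, at the 93.7 percentile of protein-coding genes. The gene spans chr7:89954654-89980976 on the minus strand. Its promoter peak, chr7:89980290-89981554, covered the only start and was 1265 bp wide with a score of 576. Of its 3 intronic peaks, at chr7:89957064-89957586, chr7:89965048-89965356 and chr7:89975524-89976096, the scores were 602, 548 and 778, so the one nearest to the start was the highest. An upstream peak at chr7:89997315-89997923, which was 16339 bp from the start, scored 831. The sixth peak, chr7:89940746-89941502, lay at the TSS of the neighbouring gene Hikeshi with a score of 872, the highest of all 36. The promoter peak of Eed therefore scored lower than 4 of the other 5 peaks around the gene.

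Suz12, the scaffold gene, lies at chr11:79993106-80034123 on the plus strand and had no peak in the gene itself. A peak of 427 bp at chr11:79979663-79980089 lay 13017 bp upstream with a score of 773, and one of 473 bp at chr11:80037389-80037861 lay downstream with a score of 560. The widest of its 3 peaks, chr11:79973596-79974602 with 1007 bp and a score of 680, lay at a TSS of the predicted gene Gm30875. Suz12 and Ezh2 were the members without a listed peak anywhere between the gene's ends.

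Mtf2 and Phf19 encode Polycomb-like proteins, which bind CpG-rich DNA and bring PRC2 to it. Mtf2 (chr5:108065660-108109219, plus strand) was the only member with 2 promoter peaks. The first, chr5:108065321-108066487, covered the main start, with a width of 1167 bp and a score of 669. The second, chr5:108076128-108077725, was 1598 bp wide (99.5 percentile of the list) with a score of 624, and it ended 440 bp before a curated internal start. That internal start had a window of 2 CpGs and 0 bases in the peak, unlike the main start with its 30 CpGs. The other Mtf2 peaks lay 12970 bp upstream (chr5:108051925-108052690, score 812), in an intron (chr5:108097351-108098111, score 778) and downstream of the gene (chr5:108113177-108113542 and chr5:108120225-108120879, scores 590 and 766). Phf19 (chr2:34893752-34914353, minus strand) had no promoter peak although its window held 38 CpGs. Its 3 peaks lay 5743 bp upstream (chr2:34920096-34920673, score 767), over a coding exon (chr2:34897773-34898276, score 586) and in an intron of the neighbouring gene Cutal (chr2:34878771-34879093, score 595).

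The second Mtf2 peak is shown at its centre, chr5:108076776-108077075 on the plus strand of GRCm38, because it was the widest of the 36 and the only one whose central 300 bases held the octamer ATTTGCAT, the letters known for POU factors such as OCT4. Capitals mark the octamer.
Mtf2 internal peak centre: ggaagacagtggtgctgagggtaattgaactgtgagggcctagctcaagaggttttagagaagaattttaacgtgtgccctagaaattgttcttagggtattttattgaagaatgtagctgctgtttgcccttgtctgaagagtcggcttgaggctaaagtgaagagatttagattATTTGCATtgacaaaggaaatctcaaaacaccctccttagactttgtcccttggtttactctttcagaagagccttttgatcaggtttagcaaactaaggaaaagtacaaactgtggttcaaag
The octamer, read on both strands, was in 1 of the 36 PRC2 peak centres (2.78%), near the share of 2.85% among the centres of all peaks. It was in 1.74% of all promoter windows and in 0 of the 12 PRC2 windows.

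Jarid2 and Aebp2, the genes of the PRC2.2 accessory subunits, had 7 peaks each and none at a promoter. JARID2 is a Jumonji family protein without demethylase activity, and AEBP2 is a zinc finger protein that stabilises the complex. Jarid2 is the longest member (chr13:44730774-44921643, plus strand, 191 kb), so its 7 peaks came to 3.03 per 100 kb, at the 57.3 percentile. The nearest to a start was 8173 bp upstream (chr13:44721996-44722601, score 805). Its 3 intronic peaks, chr13:44751798-44752183, chr13:44755402-44755827 and chr13:44812332-44812717, scored 795, 759 and 655. A further upstream peak (chr13:44711798-44712431) scored 782, and a pair in an intron of Dtnbp1 downstream (chr13:44939254-44940022 and chr13:44940599-44940914) scored 769 and 548.

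Aebp2 (chr6:140622454-140678472, plus strand) had 7.29 peaks per 100 kb, at the 88.6 percentile. Of its 3 upstream peaks, chr6:140617586-140618203 was the nearest at 4251 bp, with a score of 776. The farthest, chr6:140603202-140603925, had the highest score of any PRC2 peak at no TSS, 839, and chr6:140608581-140609052 between them scored 632. Inside the gene there was a peak in an intron (chr6:140667412-140667987, score 771) and one over a coding exon near the end of the gene (chr6:140677030-140677732, score 740). The peak at chr6:140680605-140681189 lay at a TSS of the predicted gene Gm30215 with a score of 756, and chr6:140684419-140684744 downstream scored 636.

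The median density over the 8 genes was 4.33 peaks per 100 kb, and over all protein-coding genes 2.33. With the peaks that score above the median of the list alone, these were 2.04 and 1.18. In order of density the genes ran Eed (9.05), Aebp2 (7.29), Mtf2 (7.18), Phf19 (4.95), Suz12 (3.70), Jarid2 (3.03), Ezh1 (2.65) and Ezh2 (1.90). With 2 to 7 peaks per gene and no replicate values, neighbours in this order cannot be told apart. For each gene, the shortest distance from any of its RefSeq starts to a listed peak was taken. Its median was 6206 bp over the PRC2 genes and 8700.5 bp over all protein-coding genes. A gene with more starts has more places from which a peak can be near, and this was not adjusted for.

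**Figure D2:**
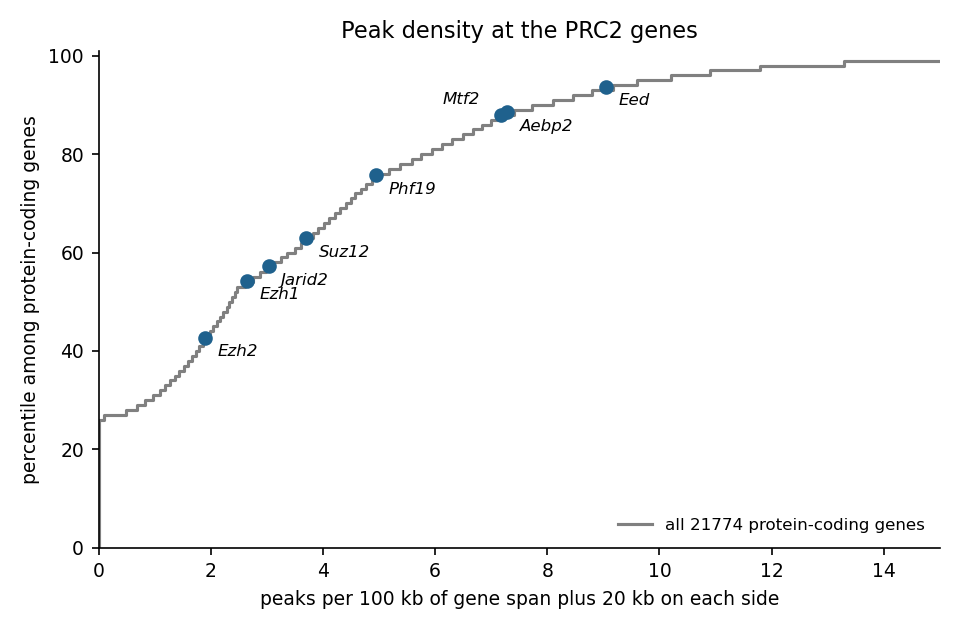
Peaks per 100 kb of gene span plus 20 kb on each side (x axis) and the percentile of that density among all protein-coding genes (y axis). The grey line is the distribution over 21774 genes and each point is a PRC2 gene. Ezh2 sits lowest at 1.90 per 100 kb and Eed highest at 9.05.

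The promoter peaks and the other peaks differed in shape. The 3 promoter peaks, at 2 genes, were 1167 to 1598 bp wide, all above the 95th percentile of the list (1052 bp). Of all 8193 peaks at a TSS, 1269 (15.5%) were wider than this percentile. The 3 promoter peaks scored 576 to 669, all below the median of the list. All 8193 listed peaks at a TSS had a median width of 705 bp and a median score of 729, so the PRC2 promoter peaks were wider and lower than these medians. This combination is common among wide peaks, since of 1269 TSS peaks wider than the 95th percentile 752 (59.3%) also scored below the median. The 30 PRC2 peaks at no TSS had a median width of 522.5 bp and a median score of 766.5, against 519 bp and 689 for all peaks at no TSS. Of these 30, 17 (56.7%) scored above the upper quartile of all peaks at no TSS, which was 757, and 8 (26.7%) scored below the lower quartile, 620. The share below the lower quartile was near that of all peaks at no TSS, and the share above the upper quartile was higher than theirs.

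**Figure D3:**
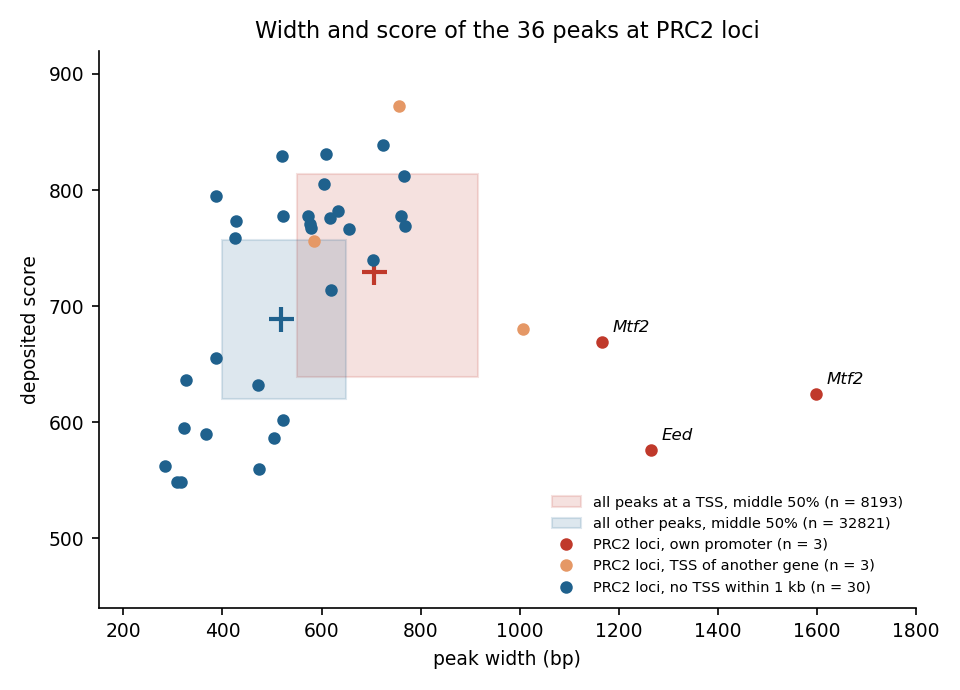
Width in bp (x axis) and deposited score (y axis) of the 36 peaks at PRC2 genes, coloured by position. The shaded boxes span the middle 50% of all 8193 peaks at a TSS and of all 32821 other peaks, and the crosses mark their medians. The 3 promoter peaks of Eed and Mtf2 lie at the right, between 1167 and 1598 bp wide, with scores of 576 to 669.

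Among the PRC2 peaks at no TSS, those upstream of the genes had the highest median score. The 11 upstream peaks at no TSS, found at 7 of the 8 genes, scored from 632 to 839 with a median of 782. The 12 peaks at no TSS inside 6 genes had a median score of 727, and the 7 downstream of 5 genes a median of 595. Of the 6 genes with both an upstream peak and another peak at no TSS, all 6 had the highest score upstream. Among the 4558 protein-coding genes with both kinds of peak, this held for 42.1%. The margin was small at Jarid2, with 805 upstream and 795 inside the gene, and large at Suz12, with 773 upstream and 560 downstream. Without the peaks whose centre is mostly soft-masked, Eed had no upstream peak left, and the highest score was upstream in 5 of 5 PRC2 genes and in 42.4% of all protein-coding genes with both kinds. This comparison was chosen after the values were seen. No source used here ties any of these upstream peaks to the regulation of a PRC2 gene.

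The promoters were denser in CpGs than the peaks at no TSS. The 12 PRC2 promoter windows had a median of 23 CpGs and a GC content of 61.7%, against 7 CpGs and 52.7% for the 32851 windows of all genes. The centres of the 30 peaks at no TSS held 1 to 10 CpGs, with a median of 4. By a common definition of a CpG-dense sequence, a GC content of at least 50% and an observed to expected CpG ratio of at least 0.6, 9 of the 12 windows (75%) were dense, with at least 1 in each of the 8 genes, against 33.5% of the windows of all genes. Of the 9 dense windows, 2 overlapped a listed peak (22.2%). Among all CpG-dense windows 32.3% did, and among the other windows of all genes 11.8% did. Neither the densest promoter, that of Suz12 with 41 CpGs, nor that of Phf19 with 38 overlapped a peak, while that of Eed with 17 did.

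**Figure D4:**
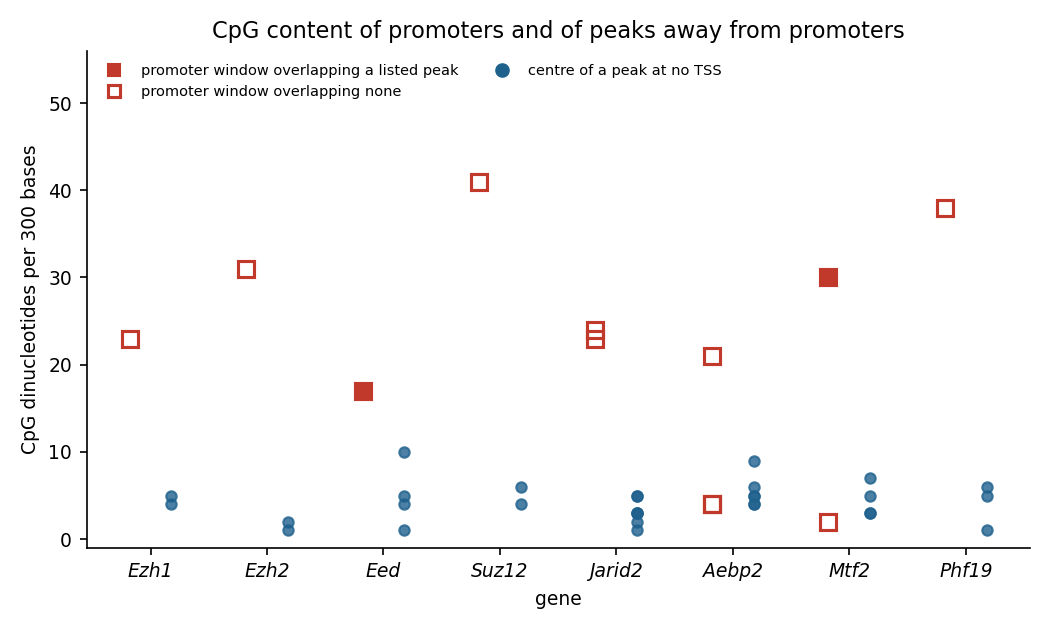
CpG dinucleotides per 300 bases (y axis) in the promoter windows of each PRC2 gene (squares, filled where the window overlaps a listed peak) and in the centres of its peaks at no TSS (circles). The windows of Eed (17 CpGs) and Mtf2 (30) are filled, and all 30 circles lie at 10 CpGs or fewer.

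Motif letters were searched on both strands of the same windows. The E2F letters TTTCCCGC, known from genes of the cell cycle, were in 2 of the 12 PRC2 promoter windows, those of Suz12 and Phf19. They were in 1.07% of all promoter windows. At Eed they were not in the promoter window but in the centre of its promoter peak, the only one of the 36 peaks to hold them, against 0.568% of all peaks. Of the 41000 peak centres in that share, 8193 are of peaks at a TSS, as the Eed one is. The share among those alone was not counted. The GC box GGGCGG was in 7 of the 12 PRC2 windows (Aebp2, Jarid2, Mtf2, Phf19 and Suz12), against 35.7% of all windows. The CTCF core CCACNAG was in 3 of the 12 (Ezh1, Jarid2 and Phf19), against 15.3%. In the peaks, CCACNAG was in 9 of 36 centres, against 21.2% of all peaks. The ETS letters CCGGAAG and the AP-1 letters TGANTCA were in 0 of the 12 windows, against 8.86% and 7.81% of all windows. The YY1 letters AAGATGGC were in 1 of the 12 (Phf19), against 2.75%, and the ZNF143 letters ACTACAA in 1 (Jarid2), against 3.24%. The octamer and the cAMP response element TGACGTCA, given beside the sequences, were in 0 of the 12. The GC box and the CTCF core are short and frequent. A match to any of these letters, those of E2F included, is not evidence of binding. The letters of E2F, the GC box, ETS and the cAMP response element each hold a CpG. Their shares among CpG-dense windows alone were not counted.

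None of the 36 PRC2 peaks overlapped a ZBTB21 peak, where 1.98% of the list did. The ZBTB21 peaks are the 1827 ChIP-seq peaks that the study lists for mESCs, made with a GFP antibody in cells whose ZBTB21 carries the degron and GFP. In the extended spans there were 2 ZBTB21 peaks, at 2 of the 8 genes (Jarid2 and Ezh1), where 14.3% of all protein-coding genes had one. The one near Ezh1, chr11:101170925-101172431, lay 18684 bp beyond the gene at a TSS of Plekhh3. The Jarid2 peak, chr13:44733181-44734903, was 1723 bp wide and covered a start of Jarid2 that RefSeq only predicts, and it lay 1910 bp from the nearest curated start. Jarid2 was thus the 1 member of 8 with a ZBTB21 peak within 1 kb of a TSS, and with curated starts alone there was none. This held for 6.17% of all protein-coding genes, and 2.96% had such a peak and no ATAC peak there, as Jarid2 did. The nearest ATAC peak to the Jarid2 ZBTB21 peak was 10580 bp away. A lack of overlap is common, since 43.8% of the ZBTB21 peaks overlapped a peak of the list.

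The centre of the Jarid2 ZBTB21 peak, chr13:44733892-44734191 on the plus strand of GRCm38, is shown because it holds the cAMP response element TGACGTCA, in capitals.
Jarid2 ZBTB21 peak centre: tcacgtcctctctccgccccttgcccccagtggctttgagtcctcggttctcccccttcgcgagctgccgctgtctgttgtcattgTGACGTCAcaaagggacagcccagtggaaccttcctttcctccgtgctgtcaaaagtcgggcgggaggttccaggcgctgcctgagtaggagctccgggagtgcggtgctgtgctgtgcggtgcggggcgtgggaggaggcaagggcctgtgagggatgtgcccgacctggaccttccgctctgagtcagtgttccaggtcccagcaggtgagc
These letters were in 20.1% of the centres of all 1827 ZBTB21 peaks, in 1.79% of all promoter windows and in 0.676% of the centres of all ATAC peaks. They were in 0 of the 12 PRC2 promoter windows and 0 of the 36 PRC2 peak centres. The centre of the ZBTB21 peak near Ezh1 did not hold them. The Jarid2 centre also held 1 match to the AP-1 letters TGANTCA and 2 GC boxes, which are not marked above. The AP-1 letters were in 7.06% and the GC box in 45.3% of the centres of all ZBTB21 peaks.

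Of the 8 genes, 2 lay in chromatin loops that the study classed as ZBTB21-responsive, Jarid2 and Aebp2, both of PRC2.2, and 15.9% of all protein-coding genes did. None lay in a less-responsive loop, where 6.24% of all protein-coding genes did. The responsive class was built from long loops that hold both ZBTB21 peaks and sites where cohesin fell after ZBTB21 was degraded. It was ranked by ZBTB21 signal and by the size of the cohesin change at the ATAC peaks inside, so peak numbers in a loop are not independent of its class. Jarid2 lay in 4 nested responsive loops that start at chr13:43600001, chr13:43850001, chr13:44150001 and chr13:44275001 and share the right anchor chr13:44950001-44975000, beyond the 3′ end of the gene. They spanned 1375, 1125, 825 and 700 kb and held 45, 40, 32 and 30 ATAC peaks, or 32.7, 35.6, 38.8 and 42.9 per Mb. The median over the 500 responsive loops was 30.4 per Mb, with quartiles of 20.7 and 38.8. All 7 Jarid2 peaks and all 5 Jarid2 starts lay inside each of the 4 loops, and no ATAC peak lay in any of their anchors. Each of the 4 held 1 ZBTB21 peak, and this was the one at Jarid2.

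Aebp2 lay partly in 1 responsive loop, chr6:140625001-143150000, which spanned 2525 kb with 40 ATAC peaks or 15.8 per Mb. Its left anchor, chr6:140625001-140650000, lay in the gene and held 0 ATAC peaks, and its right anchor held 5. The loop overlapped 23 protein-coding genes and held 1 ZBTB21 peak. Unlike at Jarid2, the nearest ZBTB21 peak to any of the 7 Aebp2 peaks was about 2310 kb away. Aebp2 was the only member at an anchor of a responsive loop, as were 3.49% of all protein-coding genes. Of the 6 Aebp2 starts 1 lay inside the loop, together with 4 of the 7 peaks, and the upstream peaks lay outside it. The loops of Jarid2 held more peaks per Mb than the responsive median, and the loop of Aebp2 fewer than the lower quartile.

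Other Polycomb and Trithorax genes were counted the same way. Of 21 genes of PRC1, the complex that ubiquitylates histone H2A, 11 (52.4%) had a promoter peak, and the highest scores were those of Phc2 (909) and L3mbtl2 (854). The lowest was that of Rybp (605), which had a peak of 1728 bp, and Phc1 had a peak of 2148 bp. Among those with none were Rnf2, Bmi1 and Kdm2b. Cbx7, Phc1 and Kdm2b had a ZBTB21 peak at a promoter, and 0 of the 21 lay in a loop of either class. Of 8 further PRC2 subunit and H3K27 demethylase genes 1 had a promoter peak, the demethylase gene Kdm6b, which also had a ZBTB21 peak at a promoter. Kdm6b, Lcor and the Polycomb-like gene Phf1 lay in responsive loops. With curated starts alone these counts were 10 of 21 for PRC1 and 0 of 8 for the further PRC2 genes, against 2 of 8 for the 8 PRC2 genes and 28.5% of all protein-coding genes with a curated start. At curated starts, ZBTB21 peaks were listed for 2 of the 21 PRC1 genes and 0 of the 8 further PRC2 genes. Among all protein-coding genes with a curated start, 6.13% had one. Of 10 COMPASS genes, which encode the opposing methyltransferases of lysine 4 and their partners, 2 had a promoter peak, Kmt2a (659) and Kmt2d (711). Kmt2c had a ZBTB21 peak at a promoter, and Kmt2a, Kmt2c, Setd1a and Ash2l lay in responsive loops. Of all protein-coding genes, 29.9% had a promoter peak and 6.17% a ZBTB21 peak at a promoter. Responsive loops held 15.9% of all protein-coding genes and less-responsive loops 6.24%. The median density was 4.88 peaks per 100 kb for PRC1, 4.87 for COMPASS and 2.44 for the further PRC2 genes, beside 4.33 for the 8 PRC2 genes.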

How the data were processed

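The authors deposited 1 list of ATAC-seq peaks for the untreated cells, with mm10 positions and a score per peak. The submitters' processing notes name cutadapt 2.6, Bowtie2 2.3.5.1 and MACS2 2.1.1. How the ATAC peaks were called, and whether cut sites were shifted for Tn5, is not given in the sources used here. The smallest score, 540, equals the scaled score of an irreproducible discovery rate of 0.05, a reading from the values alone, under which it measures agreement between replicates and not strength of signal. ZBTB21 peaks and loops came from the study's complete supplementary lists, and lists held only in part were not used.

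Here, peaks were set against every RefSeq transcript start on GRCm38, curated or predicted: a promoter peak lay within 1 kb of a start, and a locus was the gene span plus 20 kb on each side. Any overlap of at least 1 bp counted. Peak centres were 300 bases. Interval counts were tested on simulated data. Python 3.11.15, numpy 2.4.6, pandas 2.3.3, pysam 0.24.0 and matplotlib 3.10.9 were used. The 2 untreated samples are pooled in the list, so no replicate spread exists. The named genes are the 8 members, genes with a TSS at a member's promoter peak, and the genes of the lists counted beside them. Genes next to other member peaks were named after their values were seen. The members and lists were chosen with earlier results of these data known. Alternatives changed the promoter window, the starts, the flank, the score minimum, merging of peaks, and the overlap rules for ZBTB21 peaks and loops. A sequence and a gene of the lists are not reported here.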

Additional observations from a re-analysis of the deposited data

How the results depend on the processing

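Of 25 alternative settings over 10 results, 18 gave a value within 1.5 times the reported one and 7 did not. With peaks that score above the median alone, 0 PRC2 genes had a promoter peak, the loci held 21 peaks and their median density was 2.04 per 100 kb, where 19.4% of all protein-coding genes had a promoter peak and the median density over them was 1.18. Without a flank the loci held 15 peaks, and with a flank of 50 kb they held 59, as the windows changed in size. The median density was 4.21 and 4.31 per 100 kb in these settings, near the reported 4.33. With loop anchors alone, 1 PRC2 gene lay in a responsive loop. With curated starts alone, 0 PRC2 genes had a ZBTB21 peak at a promoter, an alternative chosen after seeing the data. No paired analysis was possible because the list pools both untreated replicates and no result comes from a test. Leaving out a replicate was not possible for the same reason. The list holds no depth, so a peak that is not listed sets no limit on accessibility.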
